A study of Homo sapiens with 8 samples.

Results

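Angiogenin and the vascular growth factor genes were followed in 8 Illumina HumanHT-12 v4 arrays of neuroblastoma cells. The members were ANG, RNASE4, RNH1, VEGFA, VEGFB, VEGFC, ANGPT1 and ANGPT2, and every probe that the deposited table names with one of these symbols was taken. This gave 22 probes of 8 genes, out of 47322 probes and 31426 gene symbols on the arrays. There were 2 probes for ANG, 5 for RNASE4, 2 for RNH1, 3 for VEGFA, 4 for VEGFB, 1 for VEGFC, 2 for ANGPT1 and 3 for ANGPT2. The genes were selected because of the ANG probes in the SH-SY5Y knockdown arrays, and the study had also picked ANG from those arrays. The member values in that comparison are therefore given as a description without a test.

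The arrays compare stable TRPM7 knockdown with control cells in 2 human neuroblastoma cell lines. SH-EP2 is the epithelial-like, non-neuronal subclone and SH-SY5Y the neuroblastic subclone of the SK-N-SH line. Cells were lentivirally transduced with a scrambled shRNA (control) or with TRPM7 shRNA and selected with puromycin, so that the 4 groups differ in cell line and shRNA and share transduction and selection. Each group holds 2 arrays, prepared in duplo, and 1 TRPM7 shRNA sequence was used. Neither the labels nor the methods say that duplicates are separate cultures, so p-values measure the spread between these arrays, which may be technical.

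Angiogenin is a secreted ribonuclease of the RNase A family that induces the growth of blood vessels, and it also cleaves RNA inside stressed cells. RNASE4 encodes a related secreted ribonuclease from the same locus, and RNH1 encodes the cytosolic ribonuclease inhibitor that binds angiogenin tightly. VEGFA, VEGFB and VEGFC are ligands of the VEGF receptors on blood and lymphatic endothelium, and ANGPT1 and ANGPT2 are ligands of the receptor TEK (TIE2), on which ANGPT2 usually opposes ANGPT1.

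ANG and RNASE4 share promoters. In the RefSeq annotation of GRCh38.p14, ANG lies at chr14:20684177-20694186 and RNASE4 at chr14:20684560-20701216, and 9627 bases belong to both genes. RefSeq lists 3 start sites for ANG and 2 for RNASE4 in windows of 300 bases (250 before and 50 after the start), and both RNASE4 windows are identical to ANG windows. They are printed because transcripts of both genes start in them, on the plus strand at chr14:20684310-20684609 and chr14:20688514-20688813, and capitals mark a motif match.

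ANG and RNASE4 shared window, upstream: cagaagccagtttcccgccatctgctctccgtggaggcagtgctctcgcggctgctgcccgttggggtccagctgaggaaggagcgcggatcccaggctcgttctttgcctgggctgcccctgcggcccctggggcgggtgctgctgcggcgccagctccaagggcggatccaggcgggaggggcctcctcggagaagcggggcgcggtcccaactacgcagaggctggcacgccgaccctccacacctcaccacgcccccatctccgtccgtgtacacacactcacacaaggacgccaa
ANG and RNASE4 shared window, downstream: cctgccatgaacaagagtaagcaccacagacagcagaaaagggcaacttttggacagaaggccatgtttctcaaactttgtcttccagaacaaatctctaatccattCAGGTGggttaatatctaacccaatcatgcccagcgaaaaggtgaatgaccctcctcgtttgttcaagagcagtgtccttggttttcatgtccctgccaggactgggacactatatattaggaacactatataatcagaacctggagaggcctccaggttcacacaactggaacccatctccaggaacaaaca

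Both strands were searched for ACGTG (the core of the hypoxia response element), CAGGTG (an E-box that SNAI2 can bind) and TGANTCA (the AP-1 site). The upstream window holds none of the 3 motifs, and the downstream window holds CAGGTG once. The ANG window that RNASE4 does not share, at chr14:20683927-20684226, holds ACGTG once. Of 34943 RefSeq promoter windows of this length, 21.4% hold ACGTG, 20.6% hold CAGGTG and 7.72% hold TGANTCA. RNH1 lies at chr11:494515-507242, VEGFA at chr6:43770211-43786487, VEGFB at chr11:64234584-64239264 and VEGFC at chr4:176683538-176792922. The deposited table gives no probe sequences or positions, so the exon or untranslated region that each probe reads is not given here. RefSeq also lists RNASE4 among the older names of ANG, and the assignment of a probe to either gene is that of the array design.

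Probes were counted as detected on an array at a detection p under 0.05. Median bead signals of the arrays ranged from 104.7 to 119.9 and 40.8% to 44.2% of all probes were detected. After background correction, quantile normalization and log2, the lowest detected probe of an array lay between 2.99 and 3.23 on the log2 scale. The single TRPM7 probe was undetected on the 8 arrays (detection p 0.0753 to 0.201), so these arrays give no check of the knockdown. Of 7 noradrenergic markers, 6 were detected on the SH-SY5Y arrays and 2 to 3 on the SH-EP2 arrays, and of 7 mesenchymal markers 5 and 7, respectively. Between the control arrays, 6 noradrenergic markers were lower and 6 mesenchymal markers higher in SH-EP2, which follows the labelled types. The mesenchymal marker VIM went the other way (log2 difference -0.19 ± 0.07), and the noradrenergic marker TH was undetected on the 8 arrays. Endothelial cells, the main targets of these ligands, are not among the labelled samples. Of 6 endothelial markers, 0 were detected in SH-SY5Y and 1 to 2 in SH-EP2. PECAM1 was detected on both arrays of each SH-EP2 group, at least 4.39-fold higher in SH-EP2 control than in SH-SY5Y control. CDH5, VWF, CLDN5 and EMCN were undetected on the 8 arrays. In these bulk RNA samples fewer expressing cells and less RNA per cell cannot be told apart.

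Of the 22 member probes, 9 were detected on all 8 arrays, 9 on some and 4 on none. The 4 probes without any signal above background were 1 each for RNASE4 (ILMN_2239408), VEGFA (ILMN_1693060), VEGFB (ILMN_1801814) and ANGPT2 (ILMN_3250879). They stay in all counts of 22 and are not described further.

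To see how the genes differ between the neuroblastoma types before knockdown, SH-EP2 control arrays were compared with SH-SY5Y control arrays. ANG, RNASE4, RNH1, VEGFA, VEGFC and ANGPT1 were higher in SH-EP2, and VEGFB and ANGPT2 did not pass the test. In limma with Benjamini-Hochberg adjustment over all probes, 13 of 22 member probes (59.1%) passed an adjusted p of 0.05, all of them higher in SH-EP2, where 26.2% of all probes passed and 12.2% were higher in SH-EP2. The median log2 difference was 1.27 over the member probes and -0.02 over all probes. Arrays of the 2 groups did not overlap for 19 of 22 member probes, against 55.3% of all probes. Of the 18 member probes detected on any of these arrays, 17 did not overlap. The 13 called probes read 6 genes, and most of all probes were undetected on each array, so these shares are not like for like. These control arrays also serve both knockdown comparisons. The labels give both lines the same medium while the methods of the study name different media, so that line and medium cannot be told apart.

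ANG probe ILMN_1760727 read 8.52 and 8.38 on the SH-EP2 control arrays and 5.17 and 4.96 on the SH-SY5Y control arrays, in log2 normalized signal. ANG was thus 10.4-fold higher in SH-EP2 (log2 difference 3.38 ± 0.19, standard error, adjusted p = 1.29e-11 by limma). The other probe, ILMN_1696974, read 6.74 and 6.81 against 3.79 and 3.95. It gave a 7.52-fold difference (log2 2.91 ± 0.26, adjusted p = 1.33e-08 by limma). Both ANG probes therefore separated the lines, and neither had overlapping arrays.

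RNASE4 followed ANG. Probe ILMN_1776602 read 7.77 and 7.67 in SH-EP2 control cells and was undetected in SH-SY5Y control cells, which makes it at least 23.7-fold higher in SH-EP2 (adjusted p = 2.99e-12 by limma). This bound and those below set the mean of the bright group against the lowest detected signal of each array in the dim group. They hold for the RMA background model and leave out the spread between arrays. ILMN_2408572, at 6.69 and 6.53, was undetected in SH-SY5Y too and at least 10.99-fold higher. ILMN_2294976 read 6.90 and 6.70 against 4.89 and 4.42, a 4.42-fold difference. ILMN_2294978 read 5.80 and 5.59 against 3.28 and 2.32, of which the last was undetected, a 7.42-fold difference. The 4 detectable RNASE4 probes all passed the test, and 2 of them had no SH-SY5Y signal that could show a further decrease.

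RNH1, the inhibitor, was detected on all 8 arrays by both probes and differed less. ILMN_2375599 read 9.23 and 9.16 in SH-EP2 control cells against 7.95 and 8.19 in SH-SY5Y control cells, a 2.19-fold difference (log2 1.13 ± 0.14, adjusted p = 1.27e-06 by limma). ILMN_1660880 gave 2.37-fold.

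**Figure D1:**
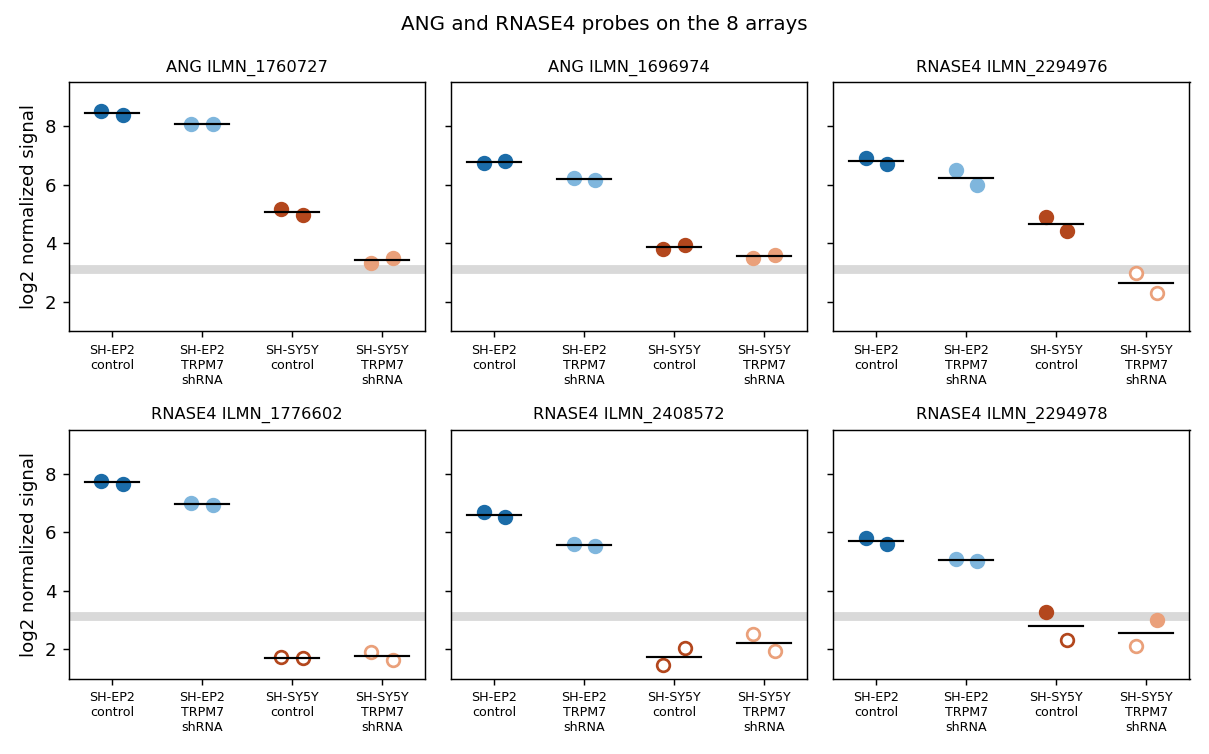
Log2 normalized signal (y axis) of the ANG and RNASE4 probes detected on any array, by group (x axis). Points are arrays, filled where detected and open where not, short lines are group means, and the grey band spans the lowest detected signal of the 8 arrays. Every probe is brightest in SH-EP2 control cells, and in SH-SY5Y cells the points lie near or below the band except for ANG ILMN_1760727 and RNASE4 ILMN_2294976 in the control arrays.

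VEGFC, the lymphatic growth factor, was detected in one line and not in the other. Its probe ILMN_1701204 read 9.63 and 9.64 in SH-EP2 control cells and was undetected on the 4 SH-SY5Y arrays. This is at least 89.1-fold higher in SH-EP2 (adjusted p = 8.34e-16 by limma).

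VEGFA, the main growth factor for blood vessels, read 7.30 and 7.10 in SH-EP2 control cells and 5.05 and 6.22 in SH-SY5Y control cells with ILMN_2375879. It was 2.96-fold higher in SH-EP2 (log2 1.57 ± 0.28, adjusted p = 0.00014 by limma), although the SH-SY5Y control arrays differed by more than a log2 unit from each other. ILMN_1803882 read 5.05 and 5.31 in SH-EP2 and was undetected in SH-SY5Y control cells, at least 4.06-fold higher.

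VEGFB, a ligand of FLT1, differed by no more than 0.33 on the log2 scale between the lines with its bright probes. ILMN_1726981 read 12.001 and 11.98 in SH-EP2 control cells and 11.84 and 11.86 in SH-SY5Y control cells, a log2 difference of 0.14 ± 0.07 (adjusted p = 0.144 by limma). ILMN_1722855 gave 0.33 ± 0.14 (adjusted p = 0.106 by limma), and it passed (adjusted p = 0.0433 by limma) when only probes detected on at least 2 arrays were tested. The VEGFB probe ILMN_1772274 was detected on 1 of 8 arrays, and it passed only without SH-SY5Y control replicate 1 (log2 -1.66, adjusted p = 0.0215 by limma).

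Of the angiopoietins, ANGPT1 read 7.98 and 7.98 in SH-EP2 control cells against 5.95 and 6.39 in SH-SY5Y control cells with ILMN_1677723, a 3.50-fold difference (log2 1.81 ± 0.17, adjusted p = 2.99e-08 by limma). Its probe ILMN_2086890 gave 2.45-fold. ANGPT2 was close to background in both controls. ILMN_1774207 read 3.53 and 4.18 in SH-EP2 and 3.40 and 2.91 in SH-SY5Y, with 1 SH-SY5Y array undetected and a log2 difference of 0.70 ± 0.38 (adjusted p = 0.227 by limma).

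**Figure D2:**
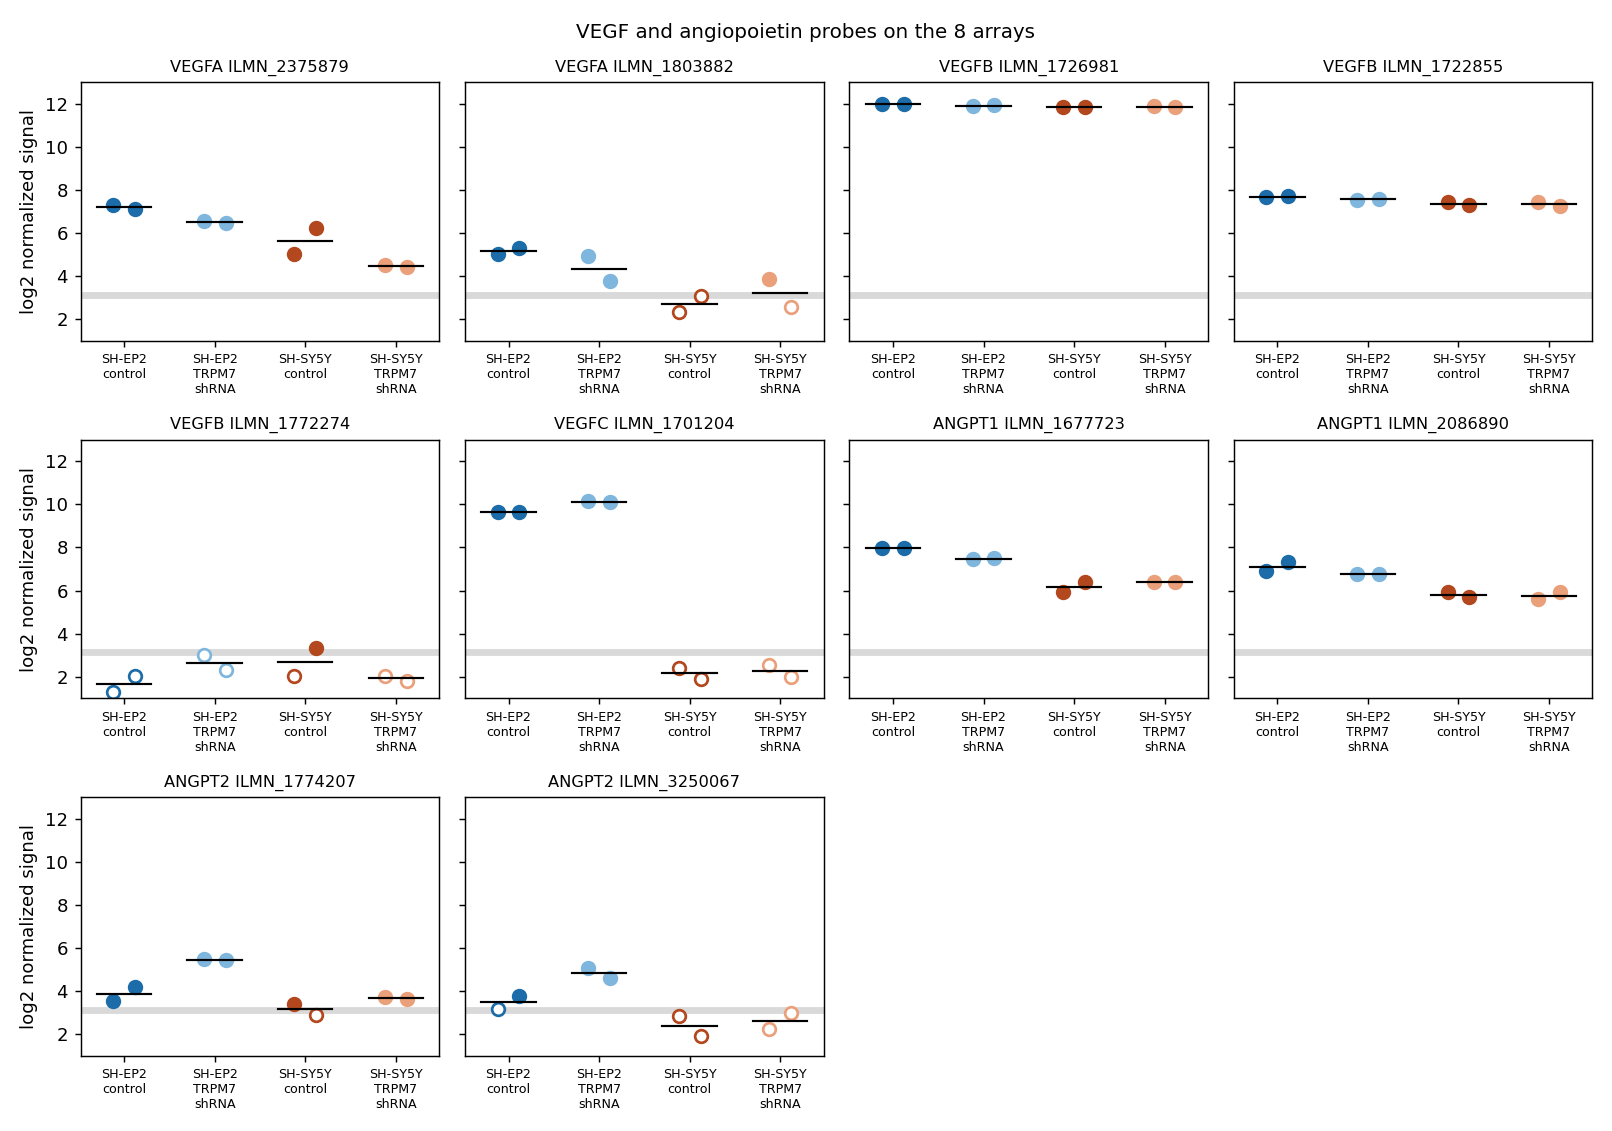
Log2 normalized signal (y axis) of the VEGF and angiopoietin probes detected on any array, by group (x axis), drawn as in the plot of ANG and RNASE4. VEGFC is seen in SH-EP2 cells only, VEGFB ILMN_1726981 lies between 11.84 and 12.001 on the 8 arrays, and ANGPT2 rises from 3.53 and 4.18 to 5.50 and 5.43 in SH-EP2 cells with ILMN_1774207.

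Next, TRPM7 shRNA was compared with control in SH-EP2 cells, a comparison that did not serve to choose the genes. ANGPT2 rose 3.05-fold in TRPM7 shRNA cells, and this was the 1 member probe of 22 (4.55%) that passed the test, where 3.03% of all probes passed. Of the 17 member probes detected in this line, 14 had a lower mean in TRPM7 shRNA cells and 3 a higher mean, with VEGFC and both ANGPT2 probes as the higher ones. The arrays of the 2 groups did not overlap for 19 of 22 member probes (86.4%), against 42.9% of all probes. The 19 include probes undetected in this line, and of the 17 detected ones 16 did not overlap. Several of these read the same gene or locus, and most of all probes were undetected, so the shares are not like for like. The median log2 difference was -0.21 over the member probes and 0.01 over all probes.

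The ANGPT2 probe ILMN_1774207 read 3.53 and 4.18 on the control arrays and 5.50 and 5.43 on the TRPM7 shRNA arrays. The log2 difference was 1.61 ± 0.38 (adjusted p = 0.0228 by limma). The call depended on single arrays, with an adjusted p of 0.223 without control replicate 1, 0.195 without TRPM7 shRNA replicate 1 and 0.161 without TRPM7 shRNA replicate 2 in limma. Its size depended on the background correction, at a log2 difference of 0.69 with normexp (offset 16) and 0.31 without correction. Its second probe, ILMN_3250067, read 3.16 and 3.78, the first of them undetected, against 5.08 and 4.61. That difference of 1.38 ± 0.50 had an adjusted p of 0.192 by limma, so both probes were higher in TRPM7 shRNA cells and 1 passed.

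The ANG probes had lower means in SH-EP2 TRPM7 shRNA cells by less than 1 log2 unit. ILMN_1760727 read 8.08 and 8.07 in TRPM7 shRNA cells against 8.52 and 8.38 in control cells, a log2 difference of -0.37 ± 0.19 (adjusted p = 0.438 by limma). ILMN_1696974 read 6.24 and 6.15 against 6.74 and 6.81, a difference of -0.58 ± 0.26 (adjusted p = 0.332 by limma). In this line the 2 ANG probes thus had differences of the same sign and, within their errors, of the same size.

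The 4 detected RNASE4 probes had differences between -1.04 and -0.57, all with TRPM7 shRNA arrays below the control arrays. The largest was that of ILMN_2408572, which read 5.61 and 5.54 in TRPM7 shRNA cells against 6.69 and 6.53 in control cells (log2 -1.04 ± 0.38, adjusted p = 0.207 by limma). ILMN_1776602 read 7.02 and 6.93 against 7.77 and 7.67 (log2 -0.75 ± 0.31, adjusted p = 0.279 by limma). None of the 4 passed the test in this fit, whose error for a probe pools the spread of all groups. For ILMN_2408572 the SDs were 0.11 and 0.05 in SH-EP2 control and TRPM7 shRNA cells. In SH-SY5Y control and TRPM7 shRNA cells, where it was undetected, they were 0.42 and 0.41.

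RNH1 differed by -0.13 ± 0.14 and -0.29 ± 0.15 with its 2 probes. VEGFA read 6.57 and 6.46 in TRPM7 shRNA cells against 7.30 and 7.10 with ILMN_2375879, a log2 difference of -0.68 ± 0.28 (adjusted p = 0.274 by limma). ILMN_1803882 read 4.93 and 3.77 against 5.05 and 5.31, a difference of -0.83 ± 0.49 that was -1.43 without TRPM7 shRNA replicate 1 and -0.25 without TRPM7 shRNA replicate 2. VEGFB differed by -0.07 ± 0.07 and -0.13 ± 0.14. These 3 genes did not pass the test with any probe.

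VEGFC read 10.16 and 10.09 in TRPM7 shRNA cells against 9.63 and 9.64 in control cells, so that its arrays did not overlap. The log2 difference was 0.49 ± 0.23 (adjusted p = 0.371 by limma). This error pools the 4 groups. The SDs were 0.007 and 0.05 in SH-EP2 control and TRPM7 shRNA cells. They were 0.37 and 0.38 in SH-SY5Y control and TRPM7 shRNA cells, where VEGFC was undetected. With the SH-EP2 arrays normalized and fitted alone the difference was 0.50 ± 0.08 (adjusted p = 0.000105 by limma). ANGPT1 read 7.44 and 7.53 against 7.98 and 7.98 with ILMN_1677723 (log2 -0.50 ± 0.17, adjusted p = 0.151 by limma) and differed by -0.35 ± 0.20 with ILMN_2086890. ANGPT1 and ANGPT2, which act on one receptor, thus had differences of opposite sign in SH-EP2, of which the one of ANGPT2 passed.

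The number of calls depended on the processing. In the fit of all 8 arrays, 5 member probes passed with normexp (offset 16), where 3.75% of all probes did, and 8 without background correction, where 4.26% did. With the SH-EP2 arrays normalized and fitted alone, 9 of 22 member probes of 6 genes passed, against 5.47% of all probes, 6 of them lower and 3 higher in TRPM7 shRNA cells. They were both ANG probes (log2 -0.39 and -0.59, adjusted p = 0.0363 and 0.0418 by limma), RNASE4 ILMN_1776602 and ILMN_2408572, VEGFA ILMN_2375879, ANGPT1 ILMN_1677723, VEGFC and both ANGPT2 probes. The 9 probes kept the sign they had in the fit of 8 arrays. Both fits take the difference from the same SH-EP2 arrays, so the kept sign is no further evidence. RNH1 and VEGFB passed with no probe in either fit. The shares of member probes and of all probes are not like for like here either.

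**Figure D3:**
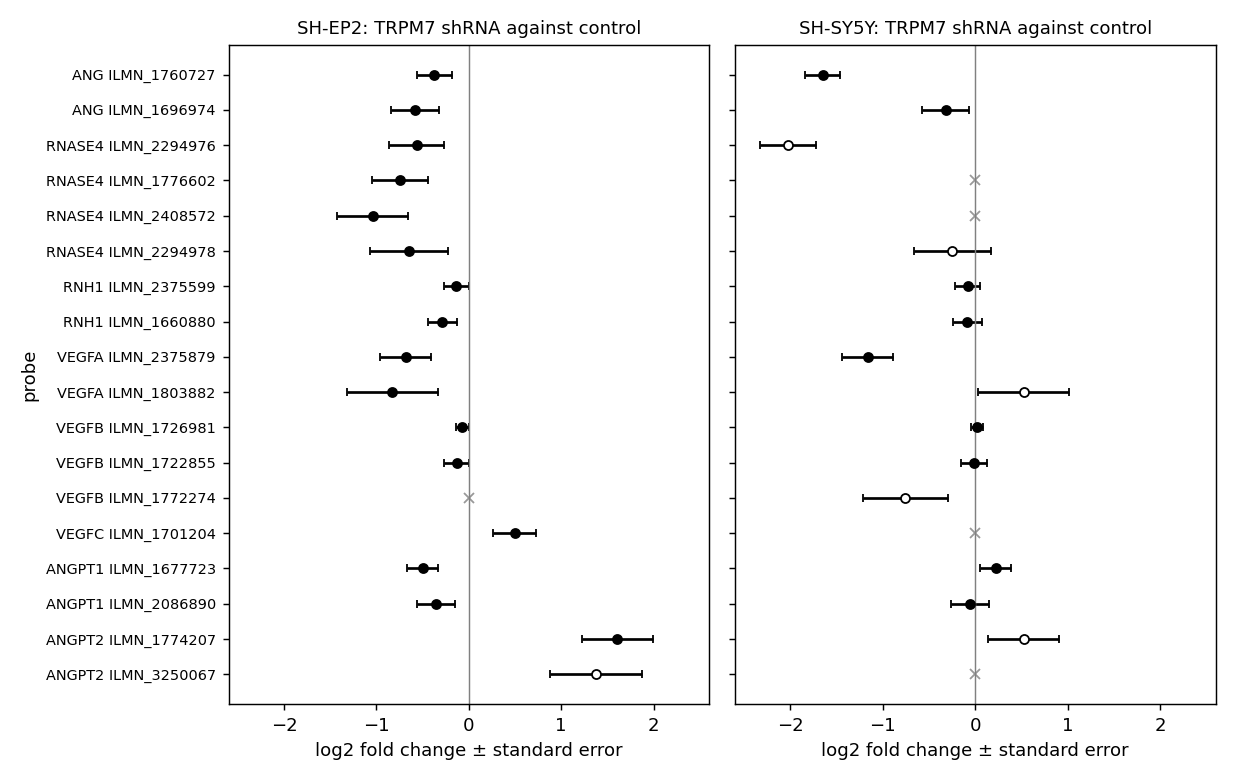
Log2 fold change of TRPM7 shRNA against control (x axis) with its standard error from the fit of 8 arrays, for each member probe detected on any array (y axis), in SH-EP2 (left) and SH-SY5Y cells (right). Filled points were detected on the 4 arrays of the line, open points on some, and grey crosses at 0 mark probes undetected there, which have no fold change. In SH-EP2 the ANG and RNASE4 points lie between -1.04 and -0.37, and in SH-SY5Y the 2 ANG points lie at -1.65 and -0.32.

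In SH-SY5Y cells the comparison that chose the genes is described without a test. ANG was lower in TRPM7 shRNA cells by a log2 difference of -1.65 ± 0.19 with ILMN_1760727, or 3.14-fold, and by -0.32 ± 0.26 with ILMN_1696974. Arrays did not overlap for 9 of 22 member probes, against 39.1% of all probes. Of the 14 member probes detected on any SH-SY5Y array, 5 did not overlap.

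The first ANG probe read 5.17 and 4.96 on the control arrays and 3.33 and 3.51 on the TRPM7 shRNA arrays, the latter just above the lowest detected signals. The second read 3.79 and 3.95 against 3.50 and 3.59, and its control arrays already lay within 1 log2 unit of that limit. Neither probe had overlapping arrays, and the 2 differ in size rather than in direction.

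The signals as deposited show how little separates these values from background. ANG ILMN_1760727 had bead signals of 150.3 and 128.5 in control and 123.7 and 127.1 in TRPM7 shRNA cells. The arrays had different medians, so that these were 38.7 and 23.7 units above the array median in control cells and 7.0 and 10.1 units above it in TRPM7 shRNA cells. ILMN_1696974 was 12.4 and 10.8 units above the median in control cells and 9.16 and 11.1 in TRPM7 shRNA cells, so that on this measure its arrays overlapped. The log2 difference of ILMN_1760727 was -0.63 with normexp (offset 16) in place of the RMA background model and -0.26 without background correction.

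RNASE4 had 1 probe that was detected on both SH-SY5Y control arrays. ILMN_2294976 read 4.89 and 4.42 in control cells and was undetected in TRPM7 shRNA cells. By the control mean on this RMA-corrected scale it was at least 3.1-fold lower, without regard to the spread between arrays. Its bead signals lay 32.1 and 15.9 units above the array median in control cells and 3.0 above it and at -4.98 relative to it in TRPM7 shRNA cells. ILMN_2294978 was detected on 1 array of each group (3.28 in control, 3.0 in TRPM7 shRNA cells), and the other 3 RNASE4 probes were undetected on the 4 arrays. The brighter ANG probe and RNASE4 ILMN_2294976 thus had differences of the same sign, while the second ANG probe had the smaller difference.

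**Figure D4:**
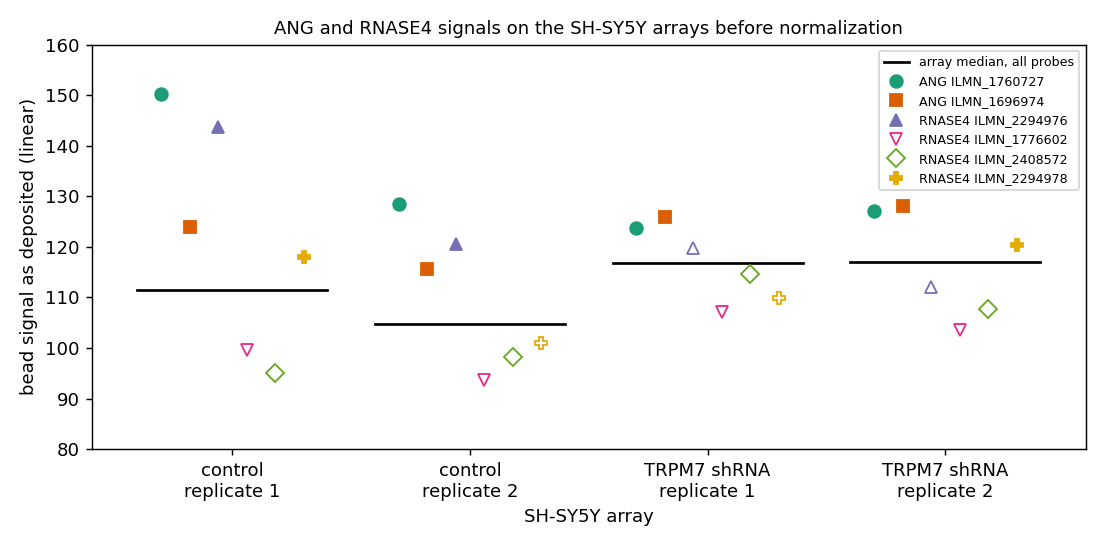
Bead signal as deposited, before normalization (y axis, linear units, starting at 80), of the ANG and RNASE4 probes on the 4 SH-SY5Y arrays (x axis), filled where detected and open where not. Horizontal lines are the median of all probes of an array. ANG ILMN_1760727 lies 38.7 and 23.7 units above the line on the control arrays and 7.0 and 10.1 units above it on the TRPM7 shRNA arrays.

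VEGFA ILMN_2375879 read 5.05 and 6.22 in SH-SY5Y control and 4.53 and 4.41 in TRPM7 shRNA cells, a log2 difference of -1.16 ± 0.28. Its size rests on 1 array, being -0.57 without control replicate 2 and -1.76 without control replicate 1. The second VEGFA probe was detected on 1 of 4 arrays, in a TRPM7 shRNA sample, at 3.87. VEGFA probes therefore give no common direction in SH-SY5Y.

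The remaining members differed by less than 0.6 on the log2 scale in SH-SY5Y, or were undetected there or, like VEGFB ILMN_1772274, seen on 1 array. VEGFB differed by 0.02 ± 0.07 and -0.02 ± 0.14, and RNH1 by -0.08 ± 0.14 and -0.08 ± 0.15. ANGPT1 differed by 0.22 ± 0.17 and -0.06 ± 0.20, and ANGPT2 ILMN_1774207 by 0.53 ± 0.38, with 3.73 and 3.62 in TRPM7 shRNA cells against 3.40 and an undetected array. The arrays of the 2 groups overlapped for RNH1, VEGFB and ANGPT1.

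Over the 4 groups, ANG ILMN_1760727 thus ran from 8.45 ± 0.10 (SD, n = 2) in SH-EP2 control and 8.08 ± 0.01 in SH-EP2 TRPM7 shRNA cells to 5.07 ± 0.15 in SH-SY5Y control and 3.42 ± 0.13 in SH-SY5Y TRPM7 shRNA cells. Among 22454 probes detected on at least 2 arrays, those of other genes most like it were ENG, SAMD9L, CRABP2, UBA7 and ITGB5 (Pearson's r 0.998 to 0.999 over 8 arrays). For VEGFA ILMN_2375879 they were SEC22C, LMAN2, LOC650111, CTNNA1 and TSPAN17 (r 0.984 to 0.987). These values are a description, as the 8 arrays come from 2 cell lines and the difference between the lines is shared by many probes.

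The receptors and relatives of these ligands were read from lists of 49 other genes, with the brightest probe of each. Of these genes, 11 passed the test in SH-EP2 (4 higher and 7 lower in TRPM7 shRNA cells) and 5 in SH-SY5Y (4 higher and 1 lower), where 3.03% and 2.12% of all probes passed. These shares are not like for like. The lists take brightest probes, of which 35 of 49 were detected in SH-EP2 and 33 in SH-SY5Y, while most of all probes were undetected on each array. Of 7 VEGF ligands, receptors and coreceptors, 0 passed in SH-EP2 and 1 in SH-SY5Y. FLT1, KDR and FLT4, the 3 VEGF receptors, were undetected on the 8 arrays, and the coreceptor NRP1 was detected on all of them. PGF, another ligand of FLT1, read 7.23 and 6.94 in SH-SY5Y TRPM7 shRNA cells against 5.96 and 6.15 in control cells and rose by 1.03 ± 0.26 (adjusted p = 0.0443 by limma). This call was lost when any of the 4 SH-SY5Y arrays or either SH-EP2 control array was left out. It was also lost without an intensity trend (adjusted p = 0.415 by limma) and as a gene mean (adjusted p = 0.0951 by limma). The angiopoietin receptors and relatives (4 genes) had 0 calls in both lines, and TEK was detected on 2 of 8 arrays. The other RNase A genes and PLXNB2, a receptor of angiogenin (7 genes), had 0 calls as well, and PLXNB2 was detected on all arrays.

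Hypoxia regulators and targets, to which VEGFA belongs, had 4 of 13 genes passing in SH-EP2. One of them, HIF1A, had already been named by the study from these arrays, so its call is no independent evidence. HIF1A and EPAS1, which encode oxygen-regulated transcription factor subunits, fell by 0.69 ± 0.15 and by 0.63 ± 0.11 on the log2 scale, and ANKRD37 fell by 2.49 ± 0.14, while ADM, a vasodilator peptide gene, rose by 0.72 ± 0.13. The HIF1A call was lost without SH-EP2 control replicate 1 or 2 or TRPM7 shRNA replicate 1, and that of EPAS1 without control replicate 1. In SH-SY5Y, 2 of 13 passed, as EPAS1 rose by 1.74 ± 0.11 (adjusted p = 1.46e-08 by limma) and ANKRD37 fell by 0.63 ± 0.14, the latter call being lost without any single SH-SY5Y array, in SH-SY5Y arrays fitted alone and with median scaling.

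Other secreted angiogenic factors had 2 of 9 genes passing in SH-EP2. IL8, a chemokine that attracts neutrophils, read 7.56 and 7.69 in TRPM7 shRNA cells against 5.30 and 5.09 in control cells and rose 5.40-fold (log2 2.43 ± 0.27, adjusted p = 1.66e-05 by limma). CTGF, a matricellular protein gene, fell by 0.79 ± 0.19, a call lost with median scaling or without any single SH-EP2 array. In SH-SY5Y, 1 of 9 passed, PDGFC, which in that line was detected on 1 TRPM7 shRNA array and in no control. It is named because it makes up the count, and its call was lost without background correction, with SH-SY5Y arrays alone, without a trend and as a gene mean. It passed in 2 of 8 fits that left out an array, over which the log2 difference ran from 0.74 to 2.03.

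Secreted inhibitors of angiogenesis moved both ways in SH-EP2, with 5 of 9 genes passing. THBS2, COL18A1 (the source of endostatin) and ADAMTS1 fell by 1.24 ± 0.16, by 1.05 ± 0.14 and by 1.85 ± 0.17 on the log2 scale. SERPINF1 (pigment epithelium-derived factor) and SEMA3A, a repulsive guidance factor, rose by 1.37 ± 0.19 and by 1.42 ± 0.14. In SH-SY5Y SEMA3A rose by 0.62 ± 0.14 (adjusted p = 0.024 by limma), a call lost without control replicate 1 or 2 or TRPM7 shRNA replicate 1, and the other 8 did not pass.

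Among 69 list and marker genes that are no members, the TRPM7 shRNA effects of the lines differed for 8 by the test of the difference itself. Of all probes 1.42% passed, a share that is not like for like, as the lists take the brightest probe of each gene. The 8 genes were EPAS1, ANKRD37, SERPINF1, ADAMTS1, DBH, ISL1, VIM and SNAI2. Some of the markers passed the test in a knockdown comparison. SNAI2, a transcription factor of migrating neural crest cells, fell by 1.39 ± 0.18 in SH-EP2 and fell by 2.77 ± 0.18 in SH-SY5Y. The study had already named SNAI2 in both lines and DBH in SH-SY5Y from these arrays. Their calls, also within the 8, are therefore no independent evidence. Of 7 mesenchymal markers, CD44 rose and SNAI2 and COL1A1 fell in SH-EP2, and SNAI2 and VIM fell in SH-SY5Y. Of 7 noradrenergic markers, DBH and ISL1 fell in SH-SY5Y and none passed in SH-EP2. Of all probes, 3.03% passed in SH-EP2 and 2.12% in SH-SY5Y, which again is not like for like. The calls of CD44, COL1A1, ISL1 and VIM were lost when single arrays of their line were left out. The summed bead signal of the 7 noradrenergic markers ranged from 17712 to 22003 in SH-SY5Y control and from 14891 to 15592 in SH-SY5Y TRPM7 shRNA cells. That of the 7 mesenchymal markers ranged from 24137 to 25808 in SH-EP2 control and from 26398 to 26877 in SH-EP2 TRPM7 shRNA cells. The part of these marker changes in the values of the angiogenic genes was not tested.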

How the data were processed

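Total RNA was hybridised to Illumina HumanHT-12 v4 arrays, and the authors extracted bead signals with GenomeStudio 2011.1. The deposited table holds, for each array, the linear signal intensity per probe, without normalization, and the detection p-value, as deposited. The methods name Robust-Multi-Array normalization but no test. Here the background model of RMA, written anew in R 4.3.3, was applied to the signals, followed by quantile normalization of the 8 arrays and log2. Groups, as labelled, were fitted with limma 3.58.1 (a linear model of the 4 groups, with moderated variances that follow an intensity trend), two-sided, with Benjamini-Hochberg adjustment over 47322 probes and a threshold of 0.05. Errors after ± are standard errors of the fit unless named SD. For each probe they pool the spread within the 4 groups, including groups where the probe was undetected. With 2 arrays per group the precision is limited, most of all near background.

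The members, lists and tests were chosen with earlier results of these data known. Named are all probes of the members, list genes whose brightest probe passed in a knockdown comparison and was detected on each array of its brighter group, the markers, and the 5 probes most like ANG and VEGFA. Replicate numbers did not pair the arrays (correlation of replicate differences between the groups of a line -0.00442 in SH-EP2 and -0.111 in SH-SY5Y). Alternatives were normexp with offset 16, no background correction, median scaling, a filter requiring detection on 2 or more arrays, variances without the trend, each line alone, a replicate block, gene means and leaving out each array. The linear model was run on simulated data with independent normal noise, whose spread was taken from the fit itself. These data held neither a detection limit nor a difference between the lines. They therefore cannot show how the calls depend on either. The background model was run on separate simulated signals. Promoter windows and gene positions are those of RefSeq (GRCh38.p14).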

Additional observations from a re-analysis of the deposited data

Results flagged for a closer look

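EPAS1 was 1 of 8 list and marker genes whose TRPM7 shRNA effects differed between the cell lines, in a test of the difference itself. It was singled out because it also passed in both lines with opposite signs, was detected on the 8 arrays and is no marker. The p of the difference was thus part of the choice. It read 9.71 and 9.60 in SH-EP2 control and 9.0 and 9.04 in SH-EP2 TRPM7 shRNA cells, against 7.29 and 7.47 in SH-SY5Y control and 9.21 and 9.03 in SH-SY5Y TRPM7 shRNA cells. The effect in SH-EP2 minus that in SH-SY5Y was -2.37 ± 0.16 on the log2 scale (adjusted p = 4.88e-08 by limma). The difference passed under every alternative run except eBayes without an intensity trend (adjusted p = 0.0537).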

How the results depend on the processing

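The count of member probes called in SH-EP2 knockdown (1) was 5 with normexp (offset 16), 8 without background correction, 9 with each line alone and 0 without an intensity trend, and 0 to 1 when single arrays were left out. The count over all probes (1433) was 2589 with each line alone, 102 without a trend and 672 to 1599 when single arrays were left out. Between the control lines, 13 member probes became 13 to 14 and 12403 probes 10635 to 12396 without single arrays. In SH-SY5Y, where no member is tested, 1003 probes became 64 without a trend and 621 to 959 without single arrays. Where an array was left out, the remaining one was assumed to vary like the other groups. The ANGPT2 call was also lost without a trend (adjusted p = 0.105 by limma) and as a mean over its probes (0.19). The mean over the VEGFB probes, of which 2 were rarely or never detected, reversed its difference to 0.25 in SH-EP2 knockdown and to -0.17 between the lines. Of 25 knockdown calls with a test, the EPAS1 difference between the lines among them, 20 were lost without a trend, 5 with median scaling and 3 with each line alone. The causes were not tested.

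With the replicate block, 1 member probe passed in SH-EP2 knockdown and 13 between the lines, and 1142, 12018 and 806 of all probes in SH-EP2 knockdown, between the lines and in SH-SY5Y knockdown. It ended 1 call named above, that of VIM in SH-SY5Y (adjusted p = 0.0544 by limma). A crossed pairing of the SH-SY5Y replicates, chosen after seeing the data, gave 1424 probes.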
